A study of Mus musculus with 4 samples.

Results

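The CXC chemokines and their receptor *Cxcr4* were followed in immortalized mouse macrophages with and without the protein kinase MK2. The set held 9 genes of the 55356 in the expression table, found by gene name: the ligand genes *Cxcl1*, *Cxcl2*, *Cxcl3*, *Cxcl5*, *Cxcl9*, *Cxcl10*, *Cxcl14* and *Cxcl16*, and the receptor gene *Cxcr4*. Bone-marrow-derived macrophages of *MK2*-knockout mice (i*MK2*-KO) were immortalized and carried either an empty retroviral vector that makes green fluorescent protein (i*MK2*-KO +*GFP*) or the same kind of vector with *MK2* (i*MK2*-KO +*MK2*), and GFP-positive cells were sorted. Each line was left untreated (UT) or received recombinant murine IL-1α at 5 ng/ml for 1 h, and 1 library was sequenced for each of the 4 conditions. Both lines thus lacked the endogenous kinase, the GEO genotype of the +*MK2* cells reads "wt" although their *MK2* came from the vector, and any difference between the lines is a difference between 1 transduced population and 1 other.

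CXC chemokines are small secreted proteins that draw leukocytes along a gradient, and they signal through receptors coupled to G proteins. *Cxcl1*, *Cxcl2*, *Cxcl3* and *Cxcl5* encode ligands with a glutamate-leucine-arginine motif that attract neutrophils through CXCR2, whereas *Cxcl9* and *Cxcl10* encode ligands of CXCR3 on T cells and natural killer cells. *Cxcl16* encodes a membrane-bound ligand of CXCR6, *Cxcl14* a chemokine of epithelia, and *Cxcr4* the receptor of CXCL12. In macrophages the inflammatory ligand genes are known targets of NF-κB, and several of their short-lived mRNAs hold AU-rich elements in the 3′ untranslated region. MK2 is activated by p38 and is known to phosphorylate tristetraprolin (*Zfp36*), a protein that binds such elements.

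The promoter windows of the members on which the results turn are shown because 3 of the ligand genes share a stretch. RefSeq windows on build GRCm38.p6, each from 250 bases before to 50 bases after a start site, were held for 7 of the 9 members, *Cxcl5* and *Cxcl16* being the others. The windows lie at chr5:90890995-90891294 (plus strand) for *Cxcl1*, chr5:90903649-90903948 (plus strand) for *Cxcl2*, chr5:90785851-90786150 (plus strand) for *Cxcl3*, chr5:92348840-92349139 (minus strand) for *Cxcl10* and chr1:128592250-128592549 (minus strand) for *Cxcr4*. They are written 5′ to 3′ along the gene, with capitals for matches to a general form of the NF-κB site and, in *Cxcl10*, also of the interferon-stimulated response element.
Cxcl1: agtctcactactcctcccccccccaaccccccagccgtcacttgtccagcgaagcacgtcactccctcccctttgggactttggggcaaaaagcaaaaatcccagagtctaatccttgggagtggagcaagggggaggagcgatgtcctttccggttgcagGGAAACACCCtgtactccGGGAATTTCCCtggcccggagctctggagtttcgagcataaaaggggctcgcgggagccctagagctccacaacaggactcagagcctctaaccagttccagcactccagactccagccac
Cxcl2: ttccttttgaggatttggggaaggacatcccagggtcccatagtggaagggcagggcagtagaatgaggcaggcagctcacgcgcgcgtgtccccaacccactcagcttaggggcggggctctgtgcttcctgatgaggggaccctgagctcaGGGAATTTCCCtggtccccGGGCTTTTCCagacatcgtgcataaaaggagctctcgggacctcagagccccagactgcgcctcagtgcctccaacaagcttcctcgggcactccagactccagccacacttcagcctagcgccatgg
Cxcl3: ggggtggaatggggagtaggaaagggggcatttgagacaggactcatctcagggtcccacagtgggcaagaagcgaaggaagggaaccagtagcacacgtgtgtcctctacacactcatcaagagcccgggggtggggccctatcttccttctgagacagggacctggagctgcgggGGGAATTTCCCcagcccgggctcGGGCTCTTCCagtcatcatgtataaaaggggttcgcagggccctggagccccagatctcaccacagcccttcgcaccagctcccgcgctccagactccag
Cxcl10: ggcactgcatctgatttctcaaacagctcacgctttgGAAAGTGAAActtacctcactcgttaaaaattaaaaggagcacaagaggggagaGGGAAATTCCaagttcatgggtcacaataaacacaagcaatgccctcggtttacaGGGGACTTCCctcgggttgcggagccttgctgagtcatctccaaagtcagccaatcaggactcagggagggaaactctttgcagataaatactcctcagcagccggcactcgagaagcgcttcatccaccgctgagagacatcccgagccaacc
Cxcr4: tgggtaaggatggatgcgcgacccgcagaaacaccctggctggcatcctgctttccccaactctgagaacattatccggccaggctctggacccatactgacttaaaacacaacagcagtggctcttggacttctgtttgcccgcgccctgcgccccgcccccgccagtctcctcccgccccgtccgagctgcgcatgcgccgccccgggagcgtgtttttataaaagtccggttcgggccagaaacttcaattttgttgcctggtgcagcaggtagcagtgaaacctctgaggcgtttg

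*Cxcl1*, *Cxcl2* and *Cxcl3* each held the same 11-letter run GGGAATTTCCC, which matched the NF-κB form on both strands in overlapping positions. Its first base lay at -71 from the start site in *Cxcl1*, at -97 in *Cxcl2* and at -73 in *Cxcl3*. *Cxcl2* held a further match, GGGCTTTTCC at -78, *Cxcl3* one at -50 (GGGCTCTTCC) and *Cxcl1* one on the minus strand at -89 (GGGTGTTTCC). *Cxcl10* held GGGAAATTCC at -159 and GGGGACTTCC at -104, and the interferon-stimulated form GAAAGTGAAA at -213. No match to either form was found in the windows of *Cxcr4* and of the ligand gene *Cxcl9*. The window of *Cxcl14*, a gene at 0 in every library, held the interferon-stimulated form (GAAACAGAAA at -172) and no NF-κB form. The *Cxcr4* window held TATAAA at -30 and, overlapping it on the other strand, at -32. *Cxcl3* also held TATAAA at -30, and *Cxcl9* held it at -195. Among all 32851 windows, 5.56% held the NF-κB form, 3.44% the interferon-stimulated form and 13.62% TATAAA, both strands searched. These are matches of letters only.

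The 3′ untranslated regions also set the members apart. The pentamer ATTTA, the core of AU-rich elements, occurred 11 times in the 734 bases of *Cxcl2*, 7 times in the 592 bases of *Cxcl1* and 5 times in the 645 bases of *Cxcl3* (GENCODE M21 transcripts on GRCm38). *Cxcl10* held 2 in 729 bases and *Cxcr4* 1 in 644 bases. *Cxcl5* held 5 in 1111 bases, *Cxcl9* 3 in 2452, *Cxcl16* 2 in 1421 and *Cxcl14* 0 in 1149. Over 20715 genes the median was 1, or 1.17 per kb by density. Of these genes 0.45% were at least as dense in ATTTA as *Cxcl2*, 0.87% as *Cxcl1* and 2.73% as *Cxcl3*. The share was 10.21% for *Cxcl5*, 24.78% for *Cxcl10*, 43.05% for *Cxcr4*, 45.76% for *Cxcl16* and 49.09% for *Cxcl9*. The densest 30 bases of *Cxcl1*, *Cxcl2* and *Cxcl3* are given with the pentamers in capitals.
Cxcl1: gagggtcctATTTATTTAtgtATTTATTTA
Cxcl2: tATTTATTTAtctatgtATTTATTTATTTA
Cxcl3: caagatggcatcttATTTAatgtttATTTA

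Values are normalized counts per gene as deposited. Their sums ran from 24891906 to 25733071 per library, between 17840 and 18152 genes were above 0, and the 10 highest genes took 6.25% to 6.75% of a library. *Mapkapk2*, the MK2 gene, was at 561 (UT) and 1585 (IL-1α) in i*MK2*-KO +*GFP* and at 38357 and 38141 in i*MK2*-KO +*MK2*, which goes with the labels. In +*MK2* this was near the value of *Gapdh* (38926 and 38970). No library of cells with endogenous MK2 was there to set beside it. The rise of *Mapkapk2* with IL-1α in +*GFP* was not tested. The cells expressed all 10 macrophage markers checked, whose summed value was between 112135 and 126085 in every library. The sum is carried by the highest markers. *Lyz2* alone was at 59858 and 64591 in +*GFP* and at 60184 and 62671 in +*MK2*, while *Aif1* was at 16, 10, 50 and 58. Of 8 neutrophil markers, *Ly6g*, *Mpo*, *S100a9*, *Camp* and *Ltf* were at 0 in all 4 libraries, and the list's sum (538, 570, 121 and 112) came almost all from *Mmp8*. The 6 fibroblast markers were at 0, and the 4 endothelial and 5 lymphocyte markers each stayed at or under the limit of 3 counts that a value of 0 allows. With 1 library per condition there is no test and no p-value. Each ratio therefore carries a 95% exact interval of counting error, which holds nothing of the spread between cultures.

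*Cxcl2*, which encodes the neutrophil attractant MIP-2, differed most between libraries. It was at 0 in i*MK2*-KO +*GFP* UT, 981 in i*MK2*-KO +*GFP* with IL-1α, 0 in i*MK2*-KO +*MK2* UT and 4 in i*MK2*-KO +*MK2* with IL-1α. The IL-1α-treated +*GFP* library thus stood alone, at least 327-fold higher than its untreated counterpart when 3 counts are put in place of the 0. The 95% counting interval, which also takes in the error of the higher value, began at 265-fold. It was 245-fold higher than the IL-1α-treated +*MK2* library (interval 95.5 to 902). In i*MK2*-KO +*MK2* the counting interval of the step from 0 to 4 included no change. On the scale of log2(value + 1), *Cxcl2* had the largest increase in +*GFP* among the 12483 genes whose mean reached 10 (9.94), also with a pseudocount of 5. The size of this log2 ratio depends on the pseudocount, since the untreated value was 0, and it was 7.62 with a pseudocount of 5. *Cxcl2* reached the mean of 10 only through the treated +*GFP* library, whose increase is ranked here, so filter and rank are not independent.

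The closest relatives of *Cxcl2* stayed near 0. *Cxcl1*, which encodes the neutrophil attractant KC, was at 1 (UT) and 0 (IL-1α) in +*GFP* and at 2 and 4 in +*MK2*. *Cxcl3* was at 2 in IL-1α-treated +*GFP* cells and at 0 in the other libraries, and *Cxcl5* was at 0 throughout. The 3 genes with the shared promoter run and the most ATTTA pentamers per base therefore included 1 with a large increase and 2 near the limit of detection. The treated +*GFP* library, with 981 for *Cxcl2*, had 0 for *Cxcl1* and 2 for *Cxcl3*, and how reads from stretches that such related genes share were divided among them is uncertain. In +*MK2* with IL-1α, *Cxcl1* and *Cxcl2* were both at 4, and the *Cxcl1* interval between the lines included no difference.

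*Cxcl10*, which encodes the CXCR3 ligand IP-10, was measurable in every library. Its value was 58 in +*GFP* UT, 522 in +*GFP* with IL-1α, 104 in +*MK2* UT and 136 in +*MK2* with IL-1α. The untreated +*GFP* library was the lowest of the 4 and the treated +*GFP* library the highest, so the order of the lines turned with IL-1α. In +*GFP* the value was 9.0-fold higher with IL-1α (interval 6.85 to 12.02), the 40th largest increase among 12483 genes. In +*MK2* it was 1.31-fold higher, an interval that only just left out no change (1.01 to 1.70) and took it in when libraries were scaled by their totals or by TMM. Between the lines *Cxcl10* was 1.79-fold lower in +*GFP* without treatment and 3.84-fold higher (3.17 to 4.67) with IL-1α. The IL-1α response of +*GFP* exceeded that of +*MK2* by 2.76 on the log2 scale.

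*Cxcl9*, whose product shares CXCR3 with CXCL10, was at 8 in +*GFP* with IL-1α and at 0 in the other 3 libraries. With 3 counts put in place of the 0 the treated +*GFP* value was 2.67-fold higher. The counting interval, which also takes in the error of the 8, began at 1.71-fold, below the 2-fold limit. *Cxcl16* was low throughout, at 11 and 13 in +*GFP* UT and IL-1α and at 4 and 5 in +*MK2*. Its ratios between the lines, 2.75-fold without and 2.60-fold with IL-1α, had intervals that included no difference, as did both of its responses. *Cxcl14* was at 0 in all 4 libraries.

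**Figure D1:**
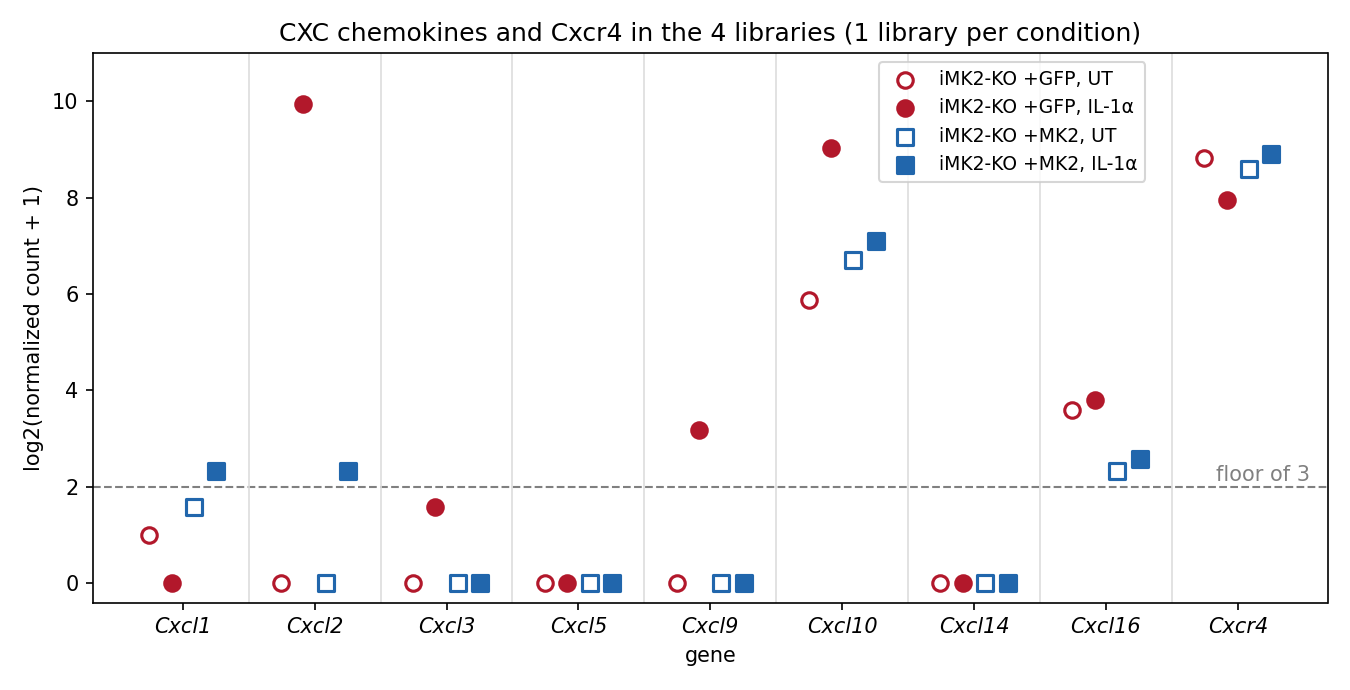
Normalized count of each CXC member in the 4 libraries, on a log2(value + 1) axis, with 1 point per library. The treated +*GFP* library stands apart at 981 for *Cxcl2* and 522 for *Cxcl10*, and lowest at 246 for *Cxcr4*.

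*Cxcr4*, the receptor gene, took another course. It was at 451 in +*GFP* UT, 246 in +*GFP* with IL-1α, 388 in +*MK2* UT and 476 in +*MK2* with IL-1α. The treated +*GFP* library was the lowest and the other 3 lay within 388 to 476. In +*GFP* the value was 1.83-fold lower with IL-1α, a log2 ratio of -0.87 (interval -1.10 to -0.65). In +*MK2* it was 1.23-fold higher, a log2 ratio of 0.29 (0.10 to 0.49). The responses of the lines differed by -1.17 on the log2 scale, a difference that could not be tested against the spread between cultures. With IL-1α *Cxcr4* was 1.94-fold lower in +*GFP* than in +*MK2*, while without it the +*GFP* value was 1.16-fold higher, an interval that included no difference under TMM or *Gapdh* scaling. In libraries of whole cultures such as these, fewer cells of a type and less RNA per cell cannot be told apart.

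**Figure D2:**
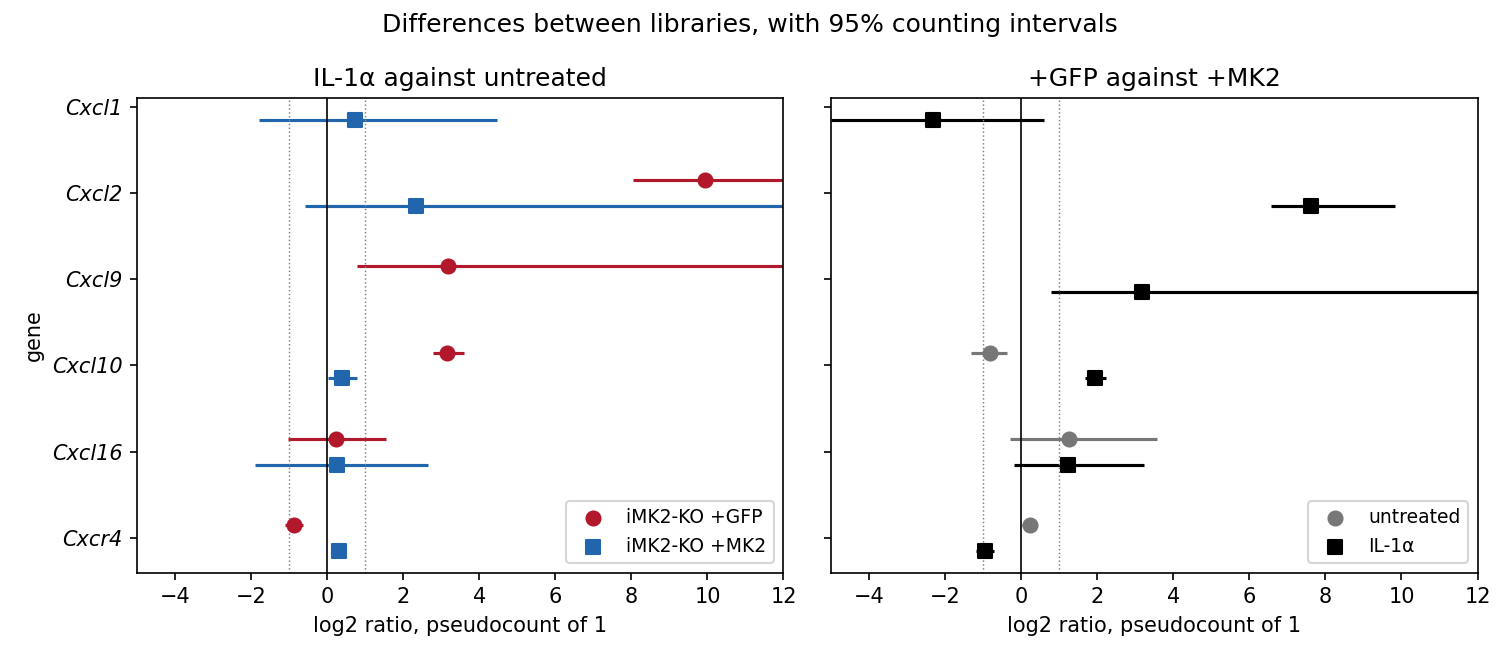
Log2 ratios with a pseudocount of 1 for the members above the floor of 3 counts. The left panel gives IL-1α against untreated in each line and the right panel +*GFP* against +*MK2*; horizontal lines are 95% counting intervals, cut at the axis, and dotted lines mark a 2-fold difference. *Cxcl2* and *Cxcl10* in +*GFP* lie right of the dotted line at 9.94 and 3.15, and *Cxcr4* in +*GFP* left of 0 at -0.87.

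Levels were set in order per kilobase of the principal transcript, since the genes differ in length. Without treatment *Cxcr4* was the highest member in both lines (250 normalized counts per kb in +*GFP* and 215 in +*MK2*), followed by *Cxcl10* (53.0 and 95.1), with *Cxcl16* at 4.08 and 1.48 and the rest near 0. With IL-1α the order in +*GFP* became *Cxcl2* (885), *Cxcl10* (477) and *Cxcr4* (136). In +*MK2* it remained *Cxcr4* (264) and then *Cxcl10* (124), with *Cxcl2* at 3.61. The lowest members, *Cxcl1*, *Cxcl3*, *Cxcl5*, *Cxcl9* and *Cxcl14*, could not be ordered at this depth.

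The counts of members follow, each beside the share of all genes with a value above 3 in at least 1 of the libraries compared. A gene counts as beyond counting error when its 95% interval leaves out a ratio of 1. In +*GFP*, 3 of 9 members (*Cxcl2*, *Cxcl9* and *Cxcl10*) were at least 2-fold higher with IL-1α and 0 lower, against 4.71% higher and 4.14% lower among 14476 genes. All 3 were beyond counting error as well, against 2.17% (1.58% for lower genes), and of any size 3 members were higher and 1, *Cxcr4*, lower, against 17.9% and 11.2%. *Cxcl2* and *Cxcl9* entered these counts only through the library in which they were high. Of the 9 members, 4 were not above 3 in either library and could not be counted, whereas the shares cover only genes above 3.

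In +*MK2*, 1 of 9 members (*Cxcl2*, at 4) was at least 2-fold higher with IL-1α and 0 lower, against 3.4% and 4.02% of 14667 genes. With the interval required as well, 0 members remained, against 1.03% higher and 1.25% lower. Beyond counting error at any size, *Cxcl10* and *Cxcr4* were higher and 0 members lower, against 10.2% and 7.61%. In this comparison 4 of the 9 members were not above 3 in either library and could not be counted.

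Between the untreated lines, 1 of 9 members (*Cxcl16*) was at least 2-fold higher in +*GFP* and 0 lower, against 6.31% and 8.71% of 14735 genes. None held with the interval required, against 3.64% and 5.67%, and at any size *Cxcr4* was higher and *Cxcl10* lower beyond counting error, against 26.9% and 24.2%. Here 6 of the 9 members were not above 3 in either library, so these counts rest on *Cxcl10*, *Cxcl16* and *Cxcr4*. Between the IL-1α-treated lines, 4 of 9 (*Cxcl2*, *Cxcl9*, *Cxcl10* and *Cxcl16*) were at least 2-fold higher in +*GFP* and *Cxcl1* lower, against 7.08% and 8.87% of 14742 genes. *Cxcl2*, *Cxcl9* and *Cxcl10* held with the interval required and 0 members on the lower side, against 4.21% and 5.75%. With libraries scaled to equal *Gapdh*, *Cxcr4* passed 2-fold as well (log2 ratio -1.05), which made 2 members lower, 1 of them beyond counting error. At any size the same 3 members were higher and *Cxcr4* lower beyond counting error, against 29.4% and 23.6%, and 3 of the 9 were not above 3 in either library. The treated +*GFP* library enters both its own response and this comparison, so the pair of counts is not independent.

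The 14 other CXC ligand and receptor genes gave few values. Only *Pf4*, *Ppbp* and *Cxcr3* were above 3 in a library, and 8, among them *Cxcl12*, *Cxcr2*, *Cxcr6* and *Ackr3*, were at 0 in all 4. Transcripts of the receptors that CXCL2 and CXCL16 are known to bind, and of the CXCR4 ligand CXCL12, were thus not detected at this depth. *Mif*, which encodes another ligand of CXCR4, was at 14941 and 15928 in +*GFP* and at 13529 and 13289 in +*MK2*. None of the 14 changed at least 2-fold with IL-1α in either line. The shares of genes above 3 were 4.71% higher and 4.14% lower in +*GFP*, and 3.4% and 4.02% in +*MK2*. *Pf4*, which encodes platelet factor 4, was at 104 (UT) and 113 (IL-1α) in +*GFP* and at 1784 and 1717 in +*MK2*, log2 ratios of -4.09 and -3.91 between the lines. *Cxcr3*, the receptor of CXCL9 and CXCL10, was at 54 and 46 in +*GFP* and at 121 and 116 in +*MK2*. Of the 10 macrophage markers, 3 were at least 2-fold lower in +*GFP* both without and with IL-1α: *Mrc1*, the mannose receptor gene (273 and 282 against 1499 and 1488), *Mertk* (421 and 364 against 1093 and 1168) and *Aif1* (16 and 10 against 50 and 58). Among all genes above 3 in a library compared, 8.71% were at least 2-fold lower in +*GFP* without IL-1α and 8.87% with it. *Cd14*, the lipopolysaccharide co-receptor gene, was at 3652 and 8072 against 1962 and 2250. The part of these markers in the differences between the lines was not tested.

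Genes of CXC receptor signaling, 22 G protein subunits, arrestins, kinases and their regulators, were all above 3. In +*GFP* 0 of them were at least 2-fold higher with IL-1α and 1 lower, against 4.71% and 4.14% of 14476 genes. Their median log2 ratio was 0.07, beside 0.01 over the 12483 genes whose mean reached 10. The lower gene was *Rgs2*, which encodes a regulator that shortens G protein signaling, at 3713 (UT) and 1824 (IL-1α) in +*GFP* and at 4903 and 4977 in +*MK2*. In +*MK2* none of the 22 changed at least 2-fold, against 3.4% higher and 4.02% lower of 14667 genes, with a median of 0.02. *Cd74*, which encodes a receptor for MIF that pairs with CXCR4, was at 6809 and 8187 in +*GFP* and at 2753 and 3047 in +*MK2*. *Pik3r5*, a regulatory subunit of the G protein-driven PI3-kinase, was at 3324 and 5786 in +*GFP* and at 2529 and 2696 in +*MK2*, a log2 ratio of 1.10 between the treated lines.

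Of 9 genes for enzymes that cleave CXC ligands, 0 changed at least 2-fold with IL-1α in either line. Among genes above 3 in a library compared, 4.71% were higher and 4.14% lower in +*GFP*, and 3.4% and 4.02% in +*MK2*. A count of 0 is thus near the share of all genes. *Adam10* and *Adam17*, which encode proteases that release CXCL16 from the membrane, were at 5451, 5187, 4127 and 4261 and at 3141, 4326, 2138 and 2409 in +*GFP* UT, +*GFP* IL-1α, +*MK2* UT and +*MK2* IL-1α. *Mmp8*, the neutrophil collagenase gene, was higher in +*GFP* (530 and 563) than in +*MK2* (115 and 107).

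A list of 15 genes held 14 that bear on the transcription or decay of ligand mRNAs and *Il1rap*, which encodes an IL-1 receptor subunit (365 and 380 in +*GFP*, 393 and 409 in +*MK2*). Of these, 4 were higher with IL-1α in +*GFP* by at least 2-fold, against 4.71% of the 14476 genes above 3 in a library compared. *Nfkbiz*, which encodes the NF-κB cofactor IκBζ, went from 190 to 9664 in +*GFP* and from 183 to 526 in +*MK2*. *Zfp36* went from 641 to 2569 in +*GFP* and was at 788 and 814 in +*MK2*. *Zc3h12a*, which encodes the mRNA-cleaving protein Regnase-1, went from 160 to 1590 in +*GFP* and from 104 to 268 in +*MK2*. *Irf1*, an interferon-regulatory transcription factor gene, went from 324 to 1885 in +*GFP* and was at 343 and 338 in +*MK2*. The median log2 ratio of the list was 0.09 in +*GFP* and 0.04 in +*MK2*, where 2 genes, *Nfkbiz* and *Zc3h12a*, were at least 2-fold higher, and 0 genes were 2-fold lower in either line. The shares among genes above 3 were 3.4% higher in +*MK2*, and 4.14% lower in +*GFP* and 4.02% lower in +*MK2*.

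The 11 CC chemokine genes, a related family, were read the same way, and 3 of them were at 0 in every library. Of the 11, 2 were at least 2-fold higher with IL-1α in +*GFP* and 0 in +*MK2*. The shares among genes above 3 in a library compared were 4.71% and 3.4%. Medians were 0.54 and 0.07 over the 7 whose mean reached 10. *Ccl3* was at 1872 and 6994 in +*GFP* and at 2558 and 2748 in +*MK2*, and *Ccl4* at 671 and 4570 in +*GFP* and at 842 and 883 in +*MK2*. Without treatment 5 of the 11 were at least 2-fold lower in +*GFP*, against 8.71% of 14735 genes, with a median of -1.04 over the same 7. With the interval required 4 remained, against 5.67%, and *Ccl12*, at 4 against 9, did not. The largest differences between the untreated lines were in *Ccl7*, at 152 against 985, and *Ccl2*, at 1216 against 3868, both encoding monocyte attractants.

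**Figure D3:**
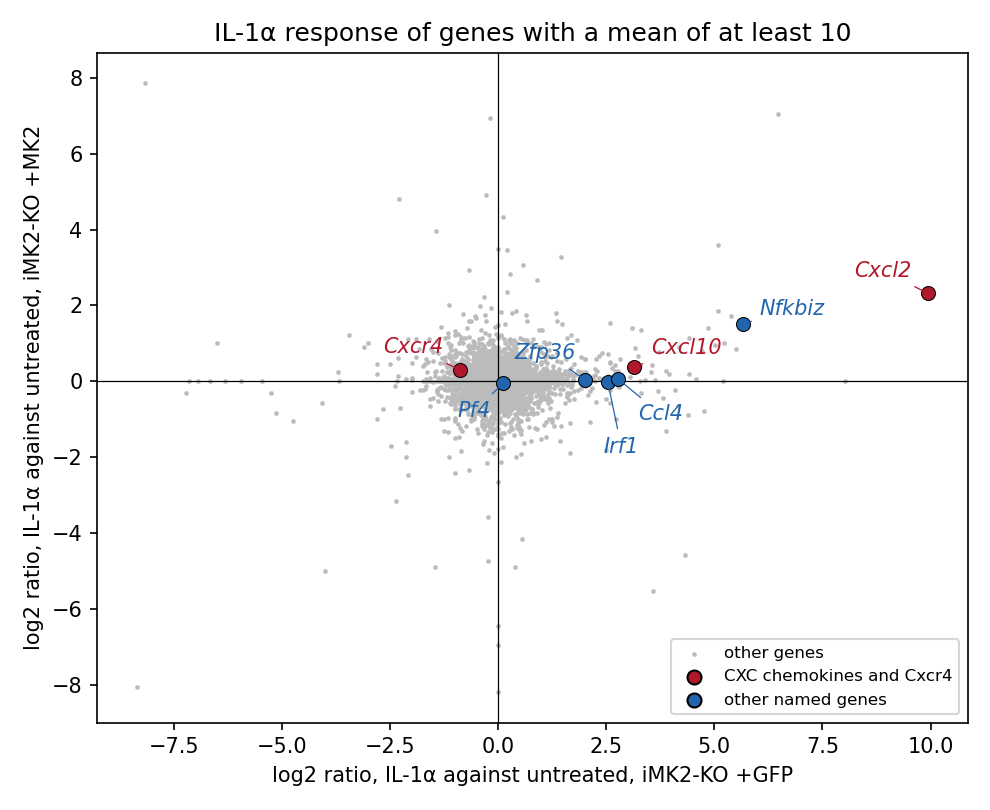
IL-1α response of each gene whose mean reached 10 in +*GFP* (horizontal) and +*MK2* (vertical), as log2 ratios with a pseudocount of 1; each grey point is a gene. *Cxcl2* lies at 9.94 and 2.32, *Cxcl10* at 3.15 and 0.38, and *Cxcr4* at -0.87 and 0.29, with *Nfkbiz*, *Zfp36*, *Irf1*, *Ccl4* and *Pf4* as other named genes.

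Of the 9 members, 6 lie on chromosome 5 between 90907219 and 92496748 in the deposited coordinates, whose build was not established. *Cxcl1* (91039100 to 91040974) ends 10.8 kb before *Cxcl2* (91051730 to 91053797) begins, and *Cxcl9* (92469206 to 92475938) neighbours *Cxcl10* (92494497 to 92496748). Elsewhere lie *Cxcr4* (chromosome 1, 128515936 to 128520030), *Cxcl16* (chromosome 11, 70344809 to 70350810) and *Cxcl14* (chromosome 13, 56436456 to 56444364). The span on chromosome 5 holds 51 genes, of which 12 that are not members had a mean that reached 10. Their IL-1α response in +*GFP* ran from -0.19 to 1.25, and 1 of the 12 reached 2-fold, *Gm15710* at 15 and 37. Among all genes with such a mean, 2.25% were at least 2-fold higher and 1.59% lower. In +*MK2* *Gm15710* went the other way, from 52 to 24. *Pf4* and *Mthfd2l*, a mitochondrial folate enzyme gene, lie on either side of the *Cxcl1* and *Cxcl2* pair and were lower in +*GFP* with and without IL-1α, *Mthfd2l* at 45 and 48 against 144 and 127.

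**Figure D4:**
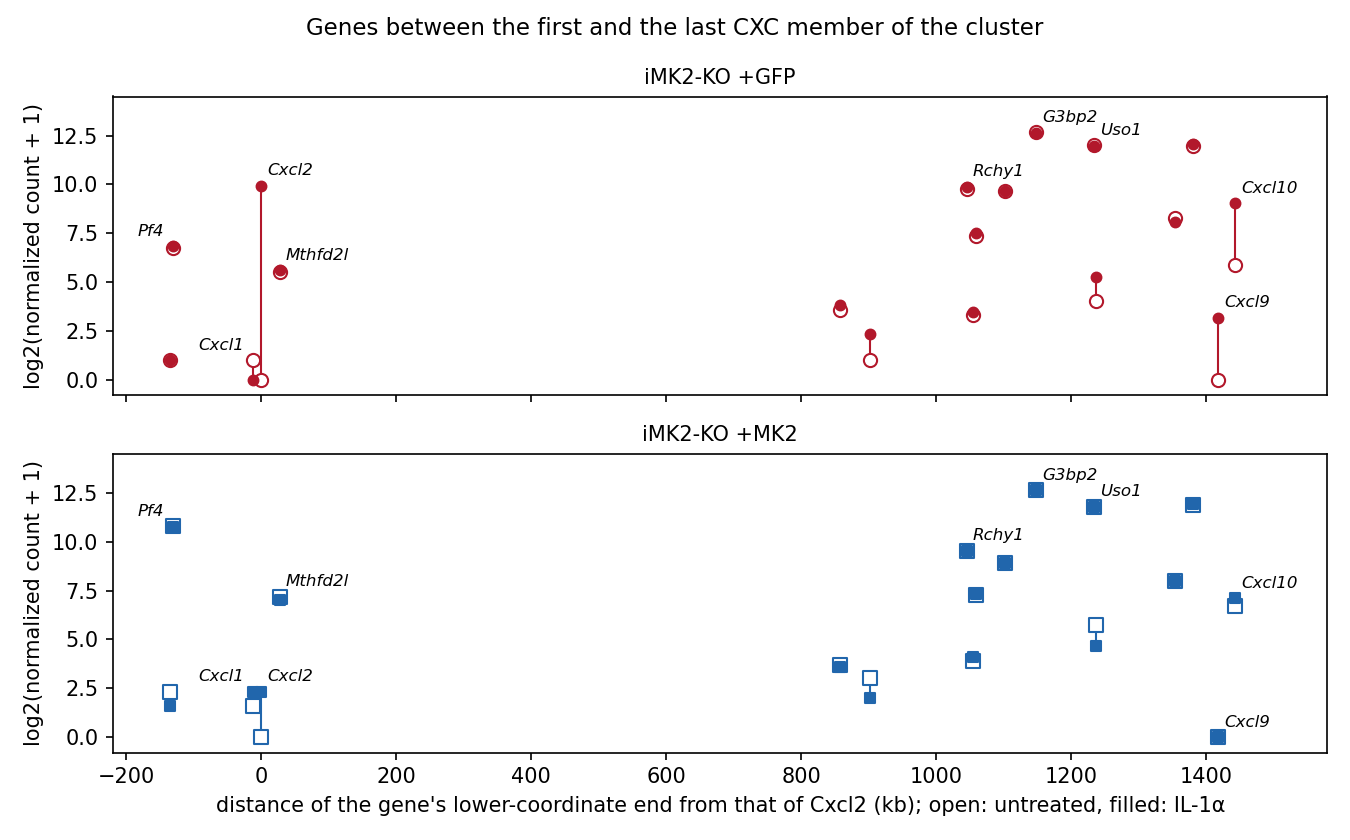
Log2(normalized count + 1) of the genes on the chromosome 5 span with a value above 3 in a library, against distance from the lower-coordinate end of *Cxcl2* in kb. Open symbols are untreated and filled symbols IL-1α-treated libraries, with +*GFP* above and +*MK2* below. *Cxcl2* and *Cxcl10* move in +*GFP*, from 0 to 981 and from 58 to 522, while *Pf4*, on the lower-coordinate side of *Cxcl2*, is at 104 and 113.

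Genes with the pattern most like each member over the 4 libraries were found by the root-mean-square distance of centred log2 values among 12483 genes. For *Cxcl2* they were *Gm10273* (distance 1.07), *Il1b* (1.64), which encodes IL-1β, and *Saa3* (1.65), a serum amyloid A gene. *Il1b* was at 47, 2007, 15 and 52 and *Saa3* at 25, 1180, 9 and 17 in +*GFP* UT, +*GFP* IL-1α, +*MK2* UT and +*MK2* IL-1α. *Gm10273* was at 0, 260, 0 and 0 in the same order. *Gm10273* and *Cxcl2* reached the mean of 10 only through the treated +*GFP* library. The distances from *Cxcl2* depend on the pseudocount of 1, since its untreated values were 0. For *Cxcl10* they were *Maff* (0.25), *Socs3* (0.26) and *Lgi4* (0.27), all highest in treated +*GFP* cells, *Socs3* at 110, 1167, 182 and 185. For *Cxcr4* they were *0610040B10Rik* (0.04), *3010003L21Rik* (0.06) and *Gm10481* (0.06), with values of at most 34 in any library. With 4 points per gene such likeness is a description only.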

How the data were processed

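RNA was measured in 1 library for each of the 4 conditions. The study's sources give different library types (poly(A) selection with paired 38-base reads in the GEO protocol, ribosomal depletion with single 75-base reads in the methods), so which was used is not settled here. The deposited table holds a score per gene: counts normalized by the authors and rounded to whole numbers. The submitters' notes name DESeq2 and GRCm38, with no version. The table's positions are of another build, since 2.88% of 52080 matched gene IDs share a start or end with GENCODE M21 on GRCm38. The column headers carry the output name of Salmon, a quantifier that divides shared reads among transcripts by estimation, with no version or settings.

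Ratios were computed as log2 with a pseudocount of 1, in Python 3.11.15 with SciPy 1.17.1. Exact Clopper-Pearson intervals at 95% take each value as a read count and cover counting error only. They were tested on simulated data with counting error alone and baselines of at least 10. Intervals from values near 0, as for *Cxcl2* and *Cxcl9*, were not covered by that simulation. The scale of reads behind the rounded values is not known, and 3 counts served as the limit that a value of 0 allows. Calls used 2-fold, and lists were described by counts and by the median over genes whose mean reached 10. With 1 library per condition no test was run. Promoters came from RefSeq and untranslated regions from GENCODE. The genes named are the members, from each list up to 4 genes past 2-fold with a value of at least 50, the 3 genes most like each member with such a value, and genes of the chromosome 5 span. *Adam10*, *Adam17* and the genes at 0 were named for their known roles, after their values were seen. *Mif*, *Il1rap*, *Lyz2*, *Ppbp* and *Ccl12* also lay outside these limits, and *Mapkapk2* and *Gapdh* served as checks. The members and lists were chosen with earlier results of these data known. Other pseudocounts, fold limits, scalings, read scales and filters were tried.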

Additional observations from a re-analysis of the deposited data

Results flagged for a closer look

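*Cxcr4* moved in opposite directions with IL-1α in the lines. It went from 451 to 246 in i*MK2*-KO +*GFP* and from 388 to 476 in i*MK2*-KO +*MK2*, so that the +*GFP* response minus the +*MK2* response was -1.17 on the log2 scale. With 1 library per condition, this difference was not tested.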

How the results depend on the processing

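No paired analysis was possible because each condition had 1 library, and for the same reason no library could be left out. The 4 comparisons' counts of members at least 2-fold apart changed as follows. With a pseudocount of 5 the IL-1α response in +*MK2* held 0 members in place of 1, the untreated lines 0 in place of 1 and the treated lines 3 in place of 5. A 1.5-fold limit gave 2 in the +*MK2* response and 2 between the untreated lines, *Cxcl16* higher and *Cxcl10* lower in +*GFP*. With the interval required it gave 1 between the untreated lines, *Cxcl10* on the lower side (0 at 2-fold). A 3-fold limit gave 0 between the untreated lines. Keeping genes whose mean reached 10 gave 0 between the untreated and 2 between the treated lines. Taking each value as more reads (the larger of the read scales tried) gave 1 (*Cxcl16*) between the untreated lines with the interval required. The other 62 alternatives to these counts stayed within 1.5 times. Higher and lower members were summed for this, so a change of direction would not show, and counts of 0 that stayed at 0 are included. Of the members' log2 ratios, 94 of 95 alternatives stayed within the counting interval, and the *Cxcl2* response in +*GFP* was 7.62 with a pseudocount of 5. For members near 0 the interval was open or wide, so staying within it says little about stability. Between the treated lines the *Cxcl9* ratio of 3.17 had an interval from 0.77 with no upper limit. The *Cxcl1* ratio there, -2.32, had no lower limit and an upper limit of 0.60. The factors of the total and TMM scalings lay between 0.967 and 1.0, which could move the ratios only slightly. In alternatives chosen after seeing the data, the interval of *Cxcl10* in the +*MK2* response took in no change with 0.75 times the reads, as did that of *Cxcr4* between the untreated lines. Scaling by *Gapdh* moved the median of all genes by -0.10 between the treated lines and took *Cxcr4* there from -0.95 to -1.05, past the 2-fold limit, so that 4 members were higher and 2 lower (3 and 1 with the interval required). The 1.5-fold limit gave these same counts between the treated lines. Depth limits *Cxcl1*, *Cxcl3*, *Cxcl5*, *Cxcl9*, *Cxcl14* and *Cxcl16*, and the absence of replicates limits every comparison.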
